A study of Mus musculus with 40 samples.

Results

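Macrophages are the most numerous leukocytes of the healthy heart, and 10 genes that mark them or their states were followed here in hearts whose cardiomyocytes express interleukin 11 (IL11), a cytokine of the IL6 family that signals through gp130. The genes were *Cd68*, *Adgre1*, *Csf1r*, *Mrc1*, *Cd163*, *Lyve1*, *Folr2*, *Timd4*, *Trem2* and *Gpnmb*, taken by name. All 10 were found by gene name in both deposited tables, which list 17646 genes for males and 17223 for females, and all 10 passed the filter on low values in both sexes. CM-Il11-Tg mice carry the tamoxifen-inducible Cre transgene MerCreMer (MCM), driven by the cardiomyocyte α-MHC promoter, and *Rosa26-Il11*, both heterozygous. Expression of *Il11* was induced at 8 weeks of age with 20 mg/kg tamoxifen on 5 days, and hearts were taken 1, 3 and 6 weeks later. By the authors' account left ventricular tissue was sequenced, and its libraries are called hearts here. Control mice were littermates heterozygous for MCM without *Rosa26-Il11*, so that Cre was present in every group. The labels tag them as WT, as given tamoxifen and as baseline, and the same controls were set against every week. Another transgenic group, also labelled baseline, received no tamoxifen and is called uninduced here. Each group holds 4 libraries per sex, 1 per mouse, except that 2 male libraries were left out because their labels contradict each other (control in one place, 6 weeks in another), which leaves 3 male controls and 3 males at 6 weeks. How old the control and uninduced mice were when their hearts were taken was not given in the sources used here. Nor was the time between tamoxifen and sampling of the controls.

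Cardiac macrophages fall broadly into resident cells, many of which were seeded before birth and renew themselves in the tissue, and cells that arise from blood monocytes recruited through the chemokine receptor CCR2. Resident cells typically carry TIMD4, LYVE1 and FOLR2, along with the scavenger receptors CD163 and MRC1, whereas CD68, ADGRE1 (F4/80) and the receptor CSF1R are shared by macrophages of either origin. CSF1R binds CSF1 and IL34 and keeps macrophages alive. TREM2, a lipid-sensing receptor, and GPNMB, a glycoprotein made under control of the MiT family of transcription factors, mark macrophages that handle lipid and debris in injured tissue. Of these genes *Lyve1* is also a marker of lymphatic endothelium, and *Gpnmb* of melanocytes.

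The values are in CPM (read counts scaled to library size, to which the authors' tables add a further factor per library, so that a column sums to 817395 to 1193422 in males and 848402 to 1196278 in females). Every comparison was therefore made within a sex and the sexes are only set side by side. Libraries held between 16663513 and 65333832 reads on listed genes in males and between 19147947 and 30929192 in females. A member was covered by 16 to 5568 reads per library in males and by 6 to 4524 in females, with the low genes *Gpnmb*, *Timd4* and *Trem2* covered least. Precision also depends on the spread between mice, which in males was wide for the better covered *Cd163* and *Mrc1*. *Il11* itself was at 0 to 0.166 CPM in the controls, at 15.5 to 49.1 in uninduced hearts and at 328 to 819 after tamoxifen. Uninduced hearts thus already held more *Il11* RNA than controls, at a level far below that after tamoxifen. Reads of the transgene and of the endogenous gene were not told apart. Summed over 6 cardiomyocyte genes, the level was 45783 to 55578 CPM in male controls and 27682 to 37072 in males at 6 weeks, and 29463 to 45963 against 26641 to 35212 in females. These values are relative to the rest of a library, so a lower share of cardiomyocyte RNA and a higher amount of macrophage RNA cannot be told apart, and in whole tissue neither can more macrophages and more RNA per macrophage.

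The 250 bases upstream of the transcription start were read for the members found in the RefSeq promoter table (GRCm38.p6), which were 7 of the 10, with 8 windows because *Folr2* has 2 starts. *Adgre1*, *Csf1r* and *Lyve1* had no entry. The search covered both strands for GAGGAA, the core bound by PU.1, the factor that specifies the myeloid lineage. It was found in 3 of the 8 windows, and in 23.3% of all 32851 windows in the table. The windows that hold it are shown for *Cd68*, *Trem2* and *Mrc1*, and beside them those of *Cd163* and *Timd4*, which do not hold it. Both windows of *Folr2* and that of *Gpnmb* lack it as well. Of the members read, *Cd68*, *Trem2*, *Mrc1* and *Folr2* rose in every induced group of both sexes. *Cd163*, *Timd4* and *Gpnmb* rose in all 3 induced female groups. Whether the motif bears on these changes was not tested. Capitals mark GAGGAA or its reverse complement.
Cd68, chr11:69666171-69666420, minus strand: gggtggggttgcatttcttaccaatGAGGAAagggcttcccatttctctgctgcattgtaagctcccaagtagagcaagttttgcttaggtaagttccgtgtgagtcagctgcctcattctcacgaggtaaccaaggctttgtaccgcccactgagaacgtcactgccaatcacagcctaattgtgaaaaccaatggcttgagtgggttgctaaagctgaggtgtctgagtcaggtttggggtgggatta
Trem2, chr17:48346151-48346400, plus strand: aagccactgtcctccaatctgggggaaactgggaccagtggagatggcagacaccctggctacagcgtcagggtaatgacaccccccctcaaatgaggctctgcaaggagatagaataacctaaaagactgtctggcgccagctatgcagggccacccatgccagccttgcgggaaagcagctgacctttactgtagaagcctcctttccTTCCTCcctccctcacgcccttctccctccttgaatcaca
Mrc1, chr2:14229164-14229413, plus strand: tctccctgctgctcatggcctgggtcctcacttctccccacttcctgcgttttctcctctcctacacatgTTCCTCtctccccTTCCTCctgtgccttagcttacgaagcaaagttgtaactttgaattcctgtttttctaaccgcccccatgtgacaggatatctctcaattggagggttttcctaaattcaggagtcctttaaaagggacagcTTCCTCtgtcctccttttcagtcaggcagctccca
Cd163, chr6:124304401-124304650, plus strand: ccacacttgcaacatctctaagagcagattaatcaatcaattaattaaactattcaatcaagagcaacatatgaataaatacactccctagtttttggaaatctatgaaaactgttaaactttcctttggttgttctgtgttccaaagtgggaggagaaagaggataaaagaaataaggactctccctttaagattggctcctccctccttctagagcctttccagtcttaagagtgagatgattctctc
Timd4, chr11:46810549-46810798, plus strand: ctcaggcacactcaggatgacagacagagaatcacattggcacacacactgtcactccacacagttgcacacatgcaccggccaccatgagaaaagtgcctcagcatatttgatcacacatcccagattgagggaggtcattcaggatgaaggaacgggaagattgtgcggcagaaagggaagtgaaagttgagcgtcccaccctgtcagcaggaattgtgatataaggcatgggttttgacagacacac
The match lies once in the *Cd68* window, 219 bases before the start, once in that of *Trem2*, 34 bases before it, and 3 times in that of *Mrc1*, where the nearest is 29 bases before it. The STAT motif TTCNNNGAA was in 0 of the 8 windows and in 7.02% of all windows, and the E-box CACGTG, which MiT factors bind, was in 0 of 8 and in 6.02%. A window without these letters says nothing of whether a factor acts on the gene.

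At baseline the members spanned a wide range of levels. Per kilobase of the canonical transcript, the mean level in male controls was highest for *Csf1r* (6.89 CPM per kb), followed by *Cd163* (5.68), *Cd68* (4.74), *Lyve1* (4.22), *Mrc1* (4.11), *Adgre1* (2.80), *Folr2* (1.90), *Trem2* (1.10), *Timd4* (0.511) and *Gpnmb* (0.308). No neighbours in this order were separate, since the libraries of each overlapped those of the next. In female controls the order was *Lyve1* (5.42), *Csf1r* (4.94), *Cd68* (4.66), *Mrc1* (3.55), *Cd163* (3.32), *Adgre1* (1.84), *Folr2* (1.77), *Trem2* (0.870), *Timd4* (0.590) and *Gpnmb* (0.150). Here *Cd163* lay above *Adgre1*, *Folr2* above *Trem2* and *Timd4* above *Gpnmb* without overlap, and the other neighbours overlapped. Of the genes tied to resident cells, *Cd163*, *Lyve1* and *Mrc1* thus stood at levels like those of the shared genes, while *Timd4* was among the lowest 3 with both genes of the lipid-handling state.

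**Figure D1:**
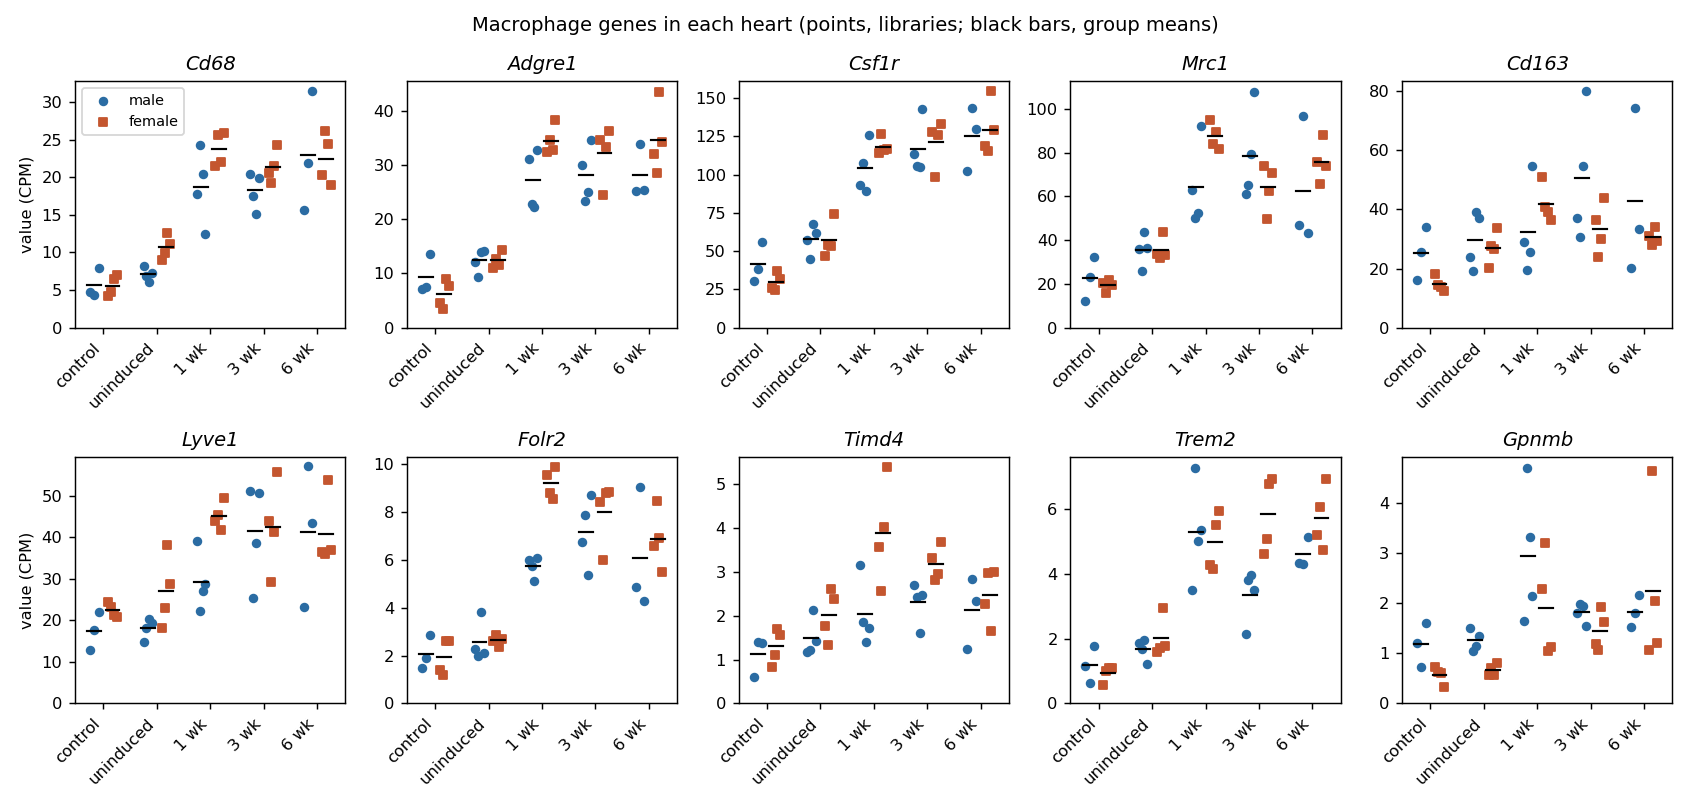
Values of the 10 members in CPM (vertical axis) in each library of the control, uninduced, 1-week, 3-week and 6-week groups (horizontal axis), with males as blue circles, females as orange squares and group means as black bars. *Adgre1* and *Csf1r* separate the induced hearts from control and uninduced hearts in both sexes, while the male libraries of *Cd163* at 6 weeks, from 20.1 to 74.3 CPM, straddle the male controls.

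The 3 genes shared by all macrophages rose in every induced group of both sexes. *Cd68* encodes a lysosomal membrane glycoprotein (ENSMUSG00000018774, chr11:69555037-69557067 of GRCm39, minus strand). In males its values were 4.68, 4.39 and 7.95 CPM in controls, 17.8, 24.2, 20.5 and 12.5 at 1 week, 20.4, 17.5, 15.2 and 19.9 at 3 weeks and 15.6, 21.9 and 31.4 at 6 weeks. In females they were 4.22, 4.69, 6.45 and 6.98 in controls, 21.5, 25.6, 22.04 and 25.8 at 1 week, 20.5, 19.2, 21.5 and 24.3 at 3 weeks and 20.3, 26.1, 24.4 and 18.9 at 6 weeks. Every induced heart thus lay above every control, and the lowest induced value was in a male at 1 week. At 6 weeks the change from control, as a difference of log2(CPM + 0.5), came to 1.92 in males (standard error 0.25, adjusted p = 8.88e-06 from limma) and 1.93 in females (standard error 0.15, adjusted p = 1.68e-09). Most of it was there at 1 week, with 1.65 and 2.02.

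*Adgre1*, which encodes the adhesion receptor recognised by the F4/80 antibody (ENSMUSG00000004730, chr17:57665573-57790527, plus strand), had the largest log2 fold change of the 10 in females at each of the 3 weeks. Male controls were at 7.08, 7.57 and 13.6 CPM and male hearts at 6 weeks at 25.3, 33.8 and 25.3. Female controls were at 4.61, 3.44, 8.91 and 7.705 and female hearts at 6 weeks at 32.03, 28.4, 43.5 and 34.2. The groups did not overlap. On the log2 scale the rise was 1.58 in males (standard error 0.22, adjusted p = 2.91e-05 from limma) and 2.46 in females (standard error 0.20, adjusted p = 6.38e-09), a 5.52-fold rise in the latter. No gene was tested for a difference between males and females in the size of its change.

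*Csf1r*, the receptor for CSF1 and IL34 (ENSMUSG00000024621, chr18:61229714-61266535, plus strand), had the highest mean CPM of the members in every group. Its male values were 30.6, 38.7 and 55.8 CPM in controls, 93.2, 108, 89.5 and 126 at 1 week, 114, 105.7, 105 and 143 at 3 weeks and 102, 143 and 129.8 at 6 weeks. Its female values were 26.3, 24.6, 36.9 and 31.6, 114, 127, 116 and 117, 128, 98.7, 126 and 133 and 119, 115, 155 and 129 in the same order. No induced heart of either sex came near the controls, and the female libraries at 1 week were tightly grouped. Against control, the log2 fold change at 6 weeks came to 1.61 in males (standard error 0.20, adjusted p = 5.17e-06 from limma) and 2.11 in females (standard error 0.14, adjusted p = 2.70e-10). Its exons share 1461 bases with *Hmgxb3* on the opposite strand, and whether reads were counted by strand was not given in the sources used here. *Hmgxb3* was at 22.4 ± 4.15 CPM in male controls and 17.6 ± 2.64 at 6 weeks (SD, n = 3 each).

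Among the genes tied to resident cells, *Mrc1* and *Folr2* rose in every induced group, and *Lyve1* rose by less. *Cd163* and *Timd4* passed the test in every induced female group and in fewer male groups. *Mrc1* encodes the mannose receptor CD206 (ENSMUSG00000026712, chr2:14234151-14336926, plus strand). Male values were 12.3, 23.1 and 32.3 CPM in controls and 47.1, 96.7 and 43.4 at 6 weeks, and female values were 20.6, 15.97, 22.01 and 19.4 and 75.8, 65.6, 87.9 and 73.9. The male hearts at 6 weeks were spread widely, with replicate 3 far above the other 2, but all lay above the controls. At 6 weeks *Mrc1* had a log2 fold change of 1.45 in males (standard error 0.33, adjusted p = 0.00242 from limma) and 1.93 in females (standard error 0.13, adjusted p = 2.61e-10). At 3 weeks it was 1.84 and 1.69.

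*Folr2*, the folate receptor beta (ENSMUSG00000032725, chr7:101489195-101506401, minus strand), was among the lower members. In males it stood at 1.499, 1.89 and 2.87 CPM in controls and 5.99, 5.76, 5.12 and 6.07 at 1 week, 6.75, 7.88, 5.36 and 8.72 at 3 weeks and 4.88, 9.04 and 4.29 at 6 weeks. For females the values were 1.38, 1.21, 2.602 and 2.61 in controls, 9.57, 8.82, 8.57 and 9.89 at 1 week, 8.41, 6.004, 8.82 and 8.85 at 3 weeks and 6.58, 8.46, 6.92 and 5.49 at 6 weeks. All induced hearts were above all controls, and the highest female group was the one at 1 week. After 1 week its log2 fold change was 1.30 in males (standard error 0.24, adjusted p = 0.000399 from limma) and 2.04 in females (standard error 0.18, adjusted p = 2.73e-08), and at 6 weeks it was 1.31 and 1.63. An antisense RNA, *Gm10602*, shares 975 exon bases with *Folr2*, and it was at 1.51 ± 0.267 CPM in female controls and 1.36 ± 0.1902 at 6 weeks (SD, n = 4 each).

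*Lyve1*, the hyaluronan receptor of resident macrophages and lymphatic vessels (ENSMUSG00000030787, chr7:110448585-110462460, minus strand), rose in every induced group, with a smaller log2 fold change than each of the 3 shared genes. Male values were 12.8, 17.6 and 21.9 CPM in controls, 39.03, 22.2, 26.9 and 28.6 at 1 week and 23.3, 57.1 and 43.5 at 6 weeks. Female values were 24.5, 23.2, 21.2 and 20.8 in controls, 43.9, 45.3, 41.7 and 49.4 at 1 week and 36.4, 35.9, 53.8 and 36.9 at 6 weeks. The male groups came close to touching, whereas the female controls lay within a narrow band below the induced hearts. The lowest induced female value was 29.3 CPM, at 3 weeks. Its log2 fold change was 0.73 at 1 week and 1.16 at 6 weeks in males (standard errors 0.27 and 0.29, adjusted p = 0.0445 and 0.00558 from limma), and 0.99 and 0.83 in females (standard errors 0.19 and 0.19, adjusted p = 0.000489 and 0.00163). The male call at 1 week was lost without control replicate 1 (adjusted p = 0.2), control replicate 3 (0.0969), or 1-week replicates 1 (0.123), 3 (0.0628) or 4 (0.069).

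Of 6 genes of lymphatic endothelium, 3 rose and 1 fell at 6 weeks in males and 3 rose and 0 fell in females, and their summed level was 80.6 to 95.6 CPM in male controls, 121 to 176 in males at 6 weeks, 80.0 to 114 in female controls and 164 to 195 in females at 6 weeks. None of the 6 was at 0. Of all tested genes at 6 weeks, 16.2% rose and 10.9% fell in males, and 21.7% rose and 21% fell in females. *Prox1*, the factor that specifies lymphatic identity, changed by -0.52 on the log2 scale in males (adjusted p = 0.0195 from limma) and by -0.06 in females (adjusted p = 0.865). The chemokine gene *Ccl21a* rose by 2.09 and 1.46, *Pdpn* by 3.48 and 3.53 and *Mmrn1* by 0.85 and 0.89, in males and females respectively. The male list thus held genes that rose and 1 that fell, and *Pdpn* is known from fibroblasts as well. Their part in the rise of *Lyve1* was not tested.

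*Cd163*, the haemoglobin scavenger receptor (ENSMUSG00000008845, chr6:124281606-124307560, plus strand), was the member that passed the test in no male group when all 5 groups were fitted together with no other term. Male values were 15.96, 25.4 and 33.9 CPM in controls, 29.1, 19.5, 25.7 and 54.6 at 1 week, 36.9, 30.6, 54.6 and 79.9 at 3 weeks and 20.1, 74.3 and 33.5 at 6 weeks. Female values were 18.04, 14.5, 13.8 and 12.2 in controls, 50.9, 40.8, 38.9 and 36.5 at 1 week, 36.3, 23.8, 30.1 and 43.7 at 3 weeks and 31.1, 28.1, 34.1 and 29.4 at 6 weeks. Every induced male group overlapped the male controls, with 1 library at 6 weeks far above the other 2, whereas every induced female heart lay above every female control. The log2 fold change at 6 weeks was 0.61 in males (95% interval -0.30 to 1.52, adjusted p = 0.319 from limma) and 1.05 in females (standard error 0.17, adjusted p = 4.55e-05). The male interval holds the female value, so that a rise of the female size could not be told from none with 3 libraries of this spread. At 3 weeks the male value of 0.96 missed the threshold (adjusted p = 0.103) and passed it when only these 2 groups were fitted (adjusted p = 0.0431). With a term for replicate number it passed as well (1.16, adjusted p = 0.00512 from limma), although mice of the same number are not known to be paired.

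*Timd4*, a phosphatidylserine receptor that marks self-renewing resident macrophages (ENSMUSG00000055546, chr11:46701620-46735177, plus strand), passed the test in every induced female group and in males at 3 weeks. Female values were 0.818, 1.11, 1.701 and 1.55 CPM in controls, 3.56, 2.57, 4.01 and 5.38 at 1 week, 3.31, 2.81, 2.94 and 3.67 at 3 weeks and 2.26, 2.96, 1.65 and 2.99 at 6 weeks. Male values were 0.5996, 1.401 and 1.37 in controls, 3.15, 1.84, 1.396 and 1.72 at 1 week, 2.6995, 2.42, 1.61 and 2.47 at 3 weeks and 1.24, 2.82 and 2.33 at 6 weeks. Female hearts at 1 and 3 weeks were above all female controls, the groups overlapped at 6 weeks, and in males they overlapped or touched at 1 and 6 weeks. In females the log2 fold changes after 1, 3 and 6 weeks were 1.28, 1.06 and 0.73 (adjusted p = 0.000132, 0.000749 and 0.0105 from limma). In males it was 0.64, 0.81 and 0.69 (adjusted p = 0.0695, 0.033 and 0.0775 from limma). The male call at 3 weeks was lost without control replicate 1 (adjusted p = 0.201) or without replicate 1 (0.0811), 2 (0.0699) or 4 (0.0664) of that week, and calls appeared without 1-week replicate 3 (0.0471) and without 6-week replicate 1 (0.0211).

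The receptor gene of the lipid-handling state, *Trem2*, rose in every induced group, while *Gpnmb* rose in all female groups and in males at 1 week. *Trem2* (ENSMUSG00000023992, chr17:48653429-48661175, plus strand) stood at 1.16, 0.644 and 1.77 CPM in male controls, 3.51, 7.29, 5.02 and 5.36 at 1 week, 2.16, 3.82, 3.98 and 3.496 at 3 weeks and 4.35, 4.31 and 5.15 at 6 weeks. Female libraries held 0.5598, 1.02, 1.101 and 1.11 in controls, 4.27, 4.17, 5.52 and 5.94 at 1 week, 4.61, 5.09, 6.77 and 6.94 at 3 weeks and 5.19, 6.06, 4.74 and 6.94 at 6 weeks. No induced heart overlapped the controls, and male hearts at 3 weeks lay below those at 6 weeks without overlap, as did 2.45% of all genes. Measured at 6 weeks, its log2 fold change was 1.64 in males (standard error 0.26, adjusted p = 8.65e-05 from limma) and 2.11 in females (standard error 0.19, adjusted p = 1.62e-08). At 3 weeks it was 1.22 in males and 2.14 in females.

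*Gpnmb* (ENSMUSG00000029816, chr6:49013426-49047863, plus strand) was the lowest member per kilobase in controls. Male values were 1.199, 0.7195 and 1.61 CPM in controls, 1.64, 4.703, 3.32 and 2.13 at 1 week, 1.81, 1.98, 1.94 and 1.55 at 3 weeks and 1.53, 1.801 and 2.17 at 6 weeks. Female values were 0.732, 0.629, 0.6004 and 0.333 in controls, 2.28, 3.199, 1.05 and 1.13 at 1 week, 1.19, 1.06, 1.93 and 1.62 at 3 weeks and 1.07, 4.64, 2.04 and 1.202 at 6 weeks. All induced female hearts exceeded the female controls, though 1 library at 6 weeks stood far above the other 3, and in males every induced group except that at 1 week overlapped the controls. The log2 fold change was 0.99 at 1 week and 0.50 at 6 weeks in males (standard errors 0.24 and 0.26, adjusted p = 0.00402 and 0.163 from limma), and 1.09 and 1.19 in females (standard errors 0.31 and 0.31, adjusted p = 0.0113 and 0.00412). The female call at 1 week was lost without replicate 2 of that week (adjusted p = 0.053), and that at 3 weeks without control replicates 2 (0.0623), 3 (0.0661) or 4 (0.109), or without 3-week replicates 1 (0.0518), 3 (0.116) or 4 (0.0877). Of 5 melanocyte genes 2 passed the filter in each sex, *Dct* and *Pmel*, and neither passed the test at 6 weeks. Of the listed melanocyte genes the summed level was 2.96 to 4.76 CPM in male controls, 2.19 to 4.55 in males at 6 weeks, 4.15 to 9.04 in female controls and 4.19 to 12.2 in females at 6 weeks. Their part in the level of *Gpnmb* was not tested.

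Counted over the 10 members, 8 rose at 1 week in males, where 18.9% of all tested genes rose, 8 at 3 weeks (13.2%) and 7 at 6 weeks (16.2%). In females 10 rose at 1 week (15.3% of all genes), 10 at 3 weeks (16.8%) and 10 at 6 weeks (21.7%). No member fell in either sex, where 14.6%, 8.1% and 10.9% of all genes fell in males and 13.1%, 14.5% and 21% in females. Groups did not overlap, with the induced hearts higher, for 8, 8 and 7 members in males at 1, 3 and 6 weeks, against 22%, 18.4% and 20.4% of all genes, and for 10, 10 and 9 members in females, against 16.5%, 18.9% and 19.5%. The members not called in males were *Cd163* and *Timd4* at 1 week, *Cd163* and *Gpnmb* at 3 weeks, and all 3 of these at 6 weeks. The median log2 fold change over the members was 1.32, 1.36 and 1.38 in males and 1.96, 1.76 and 1.78 in females, while the median over all tested genes at 6 weeks was -0.01 in males and -0.02 in females. At 6 weeks the members ranked between percentiles 82.5 (*Gpnmb*) and 98.1 (*Cd68*) of all log2 fold changes in males and between 88.3 (*Timd4*) and 98.5 (*Adgre1*) in females. In an exact permutation test, two-sided, of single genes at 6 weeks, 9 of 10 members in females reached p = 0.029, the smallest that 4 libraries against 4 allow, and 7 of 10 in males reached 0.1, the smallest for 3 against 3, which cannot pass 0.05. Groups without overlap reach these values by construction, so these counts repeat those of groups without overlap and are no further support.

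**Figure D2:**
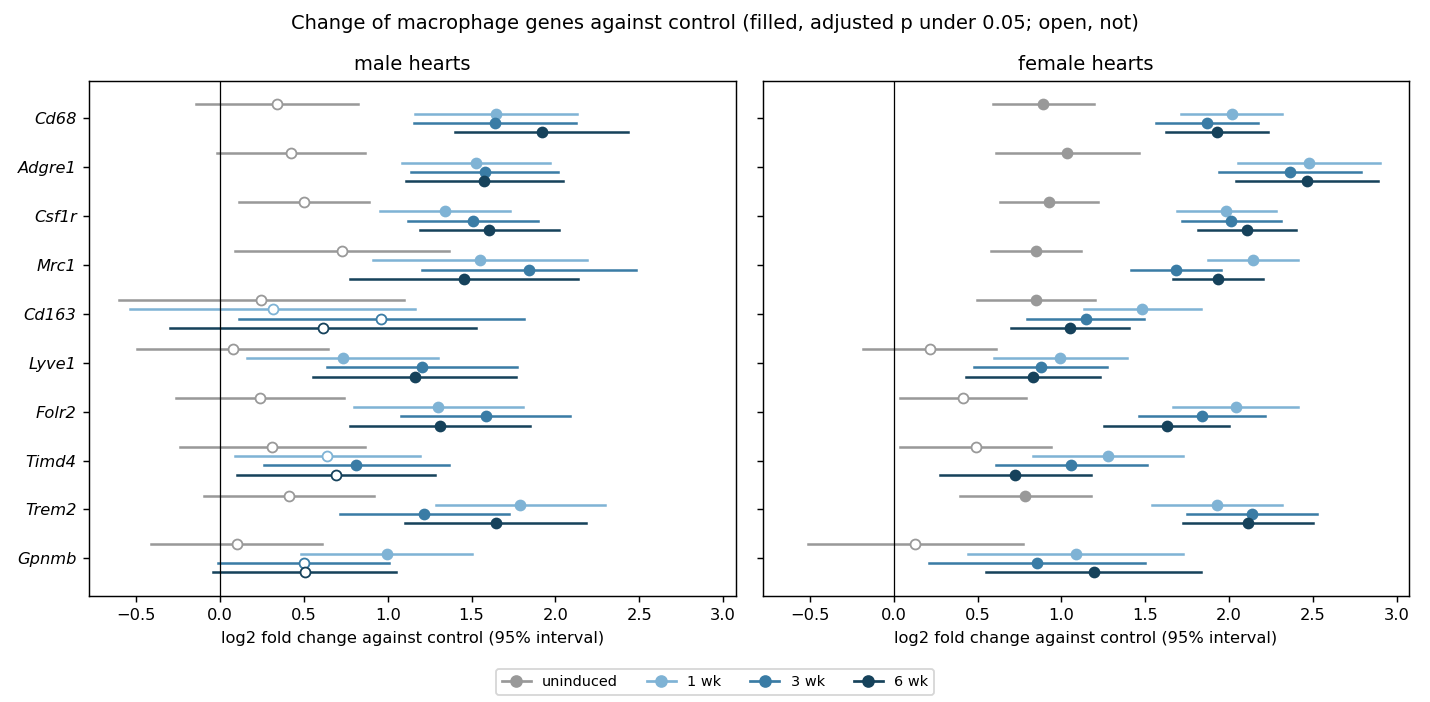
Log2 fold change against control on log2(CPM + 0.5) (horizontal axis) of each member (vertical axis) in males and females, with 95% intervals as lines and 1 colour per group. Filled points passed an adjusted p of 0.05 and open points did not. Grey points of uninduced hearts lie between 0 and the induced points for all 10 members in both sexes, and none of them is filled in males.

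From 1 to 6 weeks no member passed the threshold. In limma, 0 of 10 members passed in any of the 3 comparisons between weeks in either sex, and edgeR and DESeq2 on the recovered reads also called 0. At an unadjusted p under 0.05 there were 2 members between 1 and 3 weeks in males (16% of all genes), 0 between 1 and 6 weeks (15.4%) and 0 between 3 and 6 weeks (6.33%). In females there were 1 (10%), 3 (12.6%) and 0 (15.2%). Few genes of any kind were called here, with 0.0118% of genes higher and 0.00591% lower at 3 than at 1 week in males, 0.13% and 0.0354% at 6 than at 1 week, and 0% at 6 than at 3 weeks. The shares in females were 0.165% and 0.0531%, 0.891% and 0.142%, and 0% in the same order. The members below the unadjusted threshold were *Trem2* and *Gpnmb* in males, lower at 3 than at 1 week by log2 values of -0.57 (adjusted p = 0.231 from limma) and -0.49 (adjusted p = 0.293). In females they were *Mrc1* at 3 against 1 week (-0.46, adjusted p = 0.209) and, at 6 against 1 week, *Cd163* (-0.43, adjusted p = 0.287), *Folr2* (-0.41, adjusted p = 0.35) and *Timd4* (-0.55, adjusted p = 0.289). Male means at 1 and 6 weeks were 32.2 and 42.6 CPM for *Cd163*, 5.74 and 6.07 for *Folr2* and 2.03 and 2.13 for *Timd4*. Without overlap, 0 members were lower at 6 than at 1 week in males (4.55% of all genes) and 2 in females (2.39%), *Cd163* and *Folr2*. For *Csf1r* the 95% interval of the change from 1 to 6 weeks was -0.12 to 0.65 in males and -0.17 to 0.42 in females.

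The monocyte receptor gene *Ccr2*, by comparison, was at 0.637 to 2.54 CPM in male controls, 4.64 to 8.74 at 1 week, 10.99 to 16.9 at 3 weeks and 8.93 to 17.7 at 6 weeks. Female hearts held 0.665 to 1.21, 4.73 to 11.9, 11.4 to 18.8 and 15.3 to 22.3 in the same order. Relative to control, *Ccr2* was higher by 1.99 on the log2 scale at 1 week and 2.93 at 6 weeks in males (adjusted p = 3.34e-05 and 7.30e-07 from limma), and 2.46 and 3.75 in females (adjusted p = 4.38e-08 and 5.27e-11). The levels of *Ccr2* at 6 weeks lay above those at 1 week without overlap in both sexes, which was so for 4.55% of all genes in males and 4.09% in females and for 0 of the 10 members in either. At 6 against 1 week its log2 fold change was 0.94 in males (adjusted p = 0.191 from limma) and 1.29 in females (adjusted p = 0.00336).

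Between uninduced hearts and controls, members passed the test in females but not in males. Whether the change differs between the sexes was not tested. In males 0 of 10 members passed the test in limma, where 0.561% of genes rose and 0.0354% fell. At an unadjusted p under 0.05 there were 2 (*Csf1r* and *Mrc1*), against 10.6% of all genes, no member was higher without overlap (8.16%), and edgeR and DESeq2 also called 0. The male intervals are wide, and for *Mrc1* the log2 fold change was 0.72 with a 95% interval of 0.09 to 1.36. In females 6 of 10 members rose, where 2.41% of all genes rose and 0.466% fell, and groups did not overlap for 6, against 5.13% of all genes. The 6 were the shared genes *Cd68*, *Adgre1* and *Csf1r*, the scavenger receptors *Mrc1* and *Cd163*, and *Trem2*. Female uninduced values were 54.1, 46.7, 53.7 and 74.6 CPM for *Csf1r*, 12.8, 11.1, 11.5 and 14.3 for *Adgre1* and 9.99, 8.94, 12.6 and 11.2 for *Cd68*. They lay between the controls and the induced hearts for all 3 genes. The log2 difference was 0.92 for *Csf1r* (standard error 0.14, adjusted p = 0.000528 from limma), 1.04 for *Adgre1* (standard error 0.20, adjusted p = 0.00539) and 0.89 for *Cd68* (standard error 0.15, adjusted p = 0.000977).

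For *Mrc1* the female uninduced values were 31.6, 33.6, 43.7 and 33.1 CPM, with a log2 fold change of 0.85 (adjusted p = 0.000528 from limma), and for *Cd163* they were 27.5, 20.04, 26.8 and 33.7, with 0.85 (adjusted p = 0.00561). *Trem2* was at 1.71, 1.59, 2.95 and 1.78, with 0.79 (adjusted p = 0.0217), and this call was lost without control replicate 1 (adjusted p = 0.101) or uninduced replicate 3 (0.101), at a pseudocount of 2 (0.085) and with only these 2 groups in the fit (0.136). The call of *Adgre1* was lost in that last fit as well (adjusted p = 0.1). The 4 members that did not pass in uninduced females were *Lyve1* (0.21), *Folr2* (0.41), *Timd4* (0.49) and *Gpnmb* (0.13). All 6 calls of uninduced females reached p = 0.029 in the exact permutation test, which groups without overlap reach by construction. None of the male values did. Uninduced hearts differ from controls in the *Rosa26-Il11* allele and in having had no tamoxifen, and these cannot be told apart.

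Set against uninduced hearts of the same genotype, the induced groups held 7 members that rose at 1 week in males (12.1% of all genes rose), 7 at 3 weeks (10.6%) and 6 at 6 weeks (13%). The female counts were 10 (8.32%), 7 (10.6%) and 8 (13.7%). No member fell, where 6.66%, 5.46% and 7.4% of all genes fell in males and 4.26%, 6.15% and 9.08% in females. *Cd163* and *Timd4* were the members not past the threshold in females at 6 weeks. For *Cd163* the log2 fold change was 1.05 against control but 0.20 against uninduced hearts (95% interval -0.15 to 0.55, adjusted p = 0.409 from limma). *Folr2* passed the test against uninduced hearts in every week, with 1.22 in females at 6 weeks (adjusted p = 3.68e-05 from limma) and 1.07 in males (adjusted p = 0.00336). *Cd68* passed with 1.03 and 1.58. These comparisons share the induced libraries with those against control, and the calls of one are not independent of the other. Induced hearts also differ from uninduced ones in having had tamoxifen, and possibly in age, and these cannot be told apart from the higher *Il11*.

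To set the genes against 1 of the genes shared by macrophages, each was divided by *Csf1r* in the same library, as a description with no test. How much *Csf1r* RNA each macrophage holds was not measured, and another shared gene would give other ratios. Most genes fall on this scale because *Csf1r* rose: at 6 weeks 82.7% of all genes in males and 89.6% in females were lower than in controls without overlap. Of the 9 members other than *Csf1r* 2 were so in males and 3 in females, and 0 in males (2.36% of all genes) and 1 in females (1.91%) were higher. *Lyve1* stood at 57.3% to 94.3% of *Csf1r* in female controls, 35.8% to 42.4% at 1 week and 28.5% to 34.8% at 6 weeks. *Cd163* stood at 37.4% to 68.7% in female controls, 31.3% to 44.6% at 1 week and 22.02% to 26.2% at 6 weeks. *Timd4* was at 3.11% to 4.91% in female controls and 1.07% to 2.57% at 6 weeks. These 3 were the female members with a ratio below that of every control at 6 weeks. The ratios of *Folr2* (4.91% to 8.25% in female controls, 4.24% to 7.34% at 6 weeks) overlapped, as did those of *Mrc1* (59.6% to 78.4%, and 56.8% to 63.9%) and *Trem2* (2.13% to 4.13%, and 3.06% to 5.36%). At 3 weeks the ratio of *Mrc1*, at 49.5% to 57.6%, lay below every female control, and 4 of the 9 members did so, against 90.4% of all genes. The ratio that was higher at 6 weeks was that of *Adgre1*, at 13.9% to 24.4% in female controls and 24.7% to 28.1% at 6 weeks. In males the ratio of *Cd163* was 52.2% to 65.7% in controls, 18.1% to 43.3% at 1 week, 28.9% to 55.8% at 3 weeks and 19.6% to 51.8% at 6 weeks, and *Gpnmb* was the other member lower without overlap at 6 weeks (1.86% to 3.92%, against 1.26% to 1.67%). *Lyve1* in males overlapped (39.3% to 45.5%, against 22.7% to 39.8%).

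**Figure D3:**
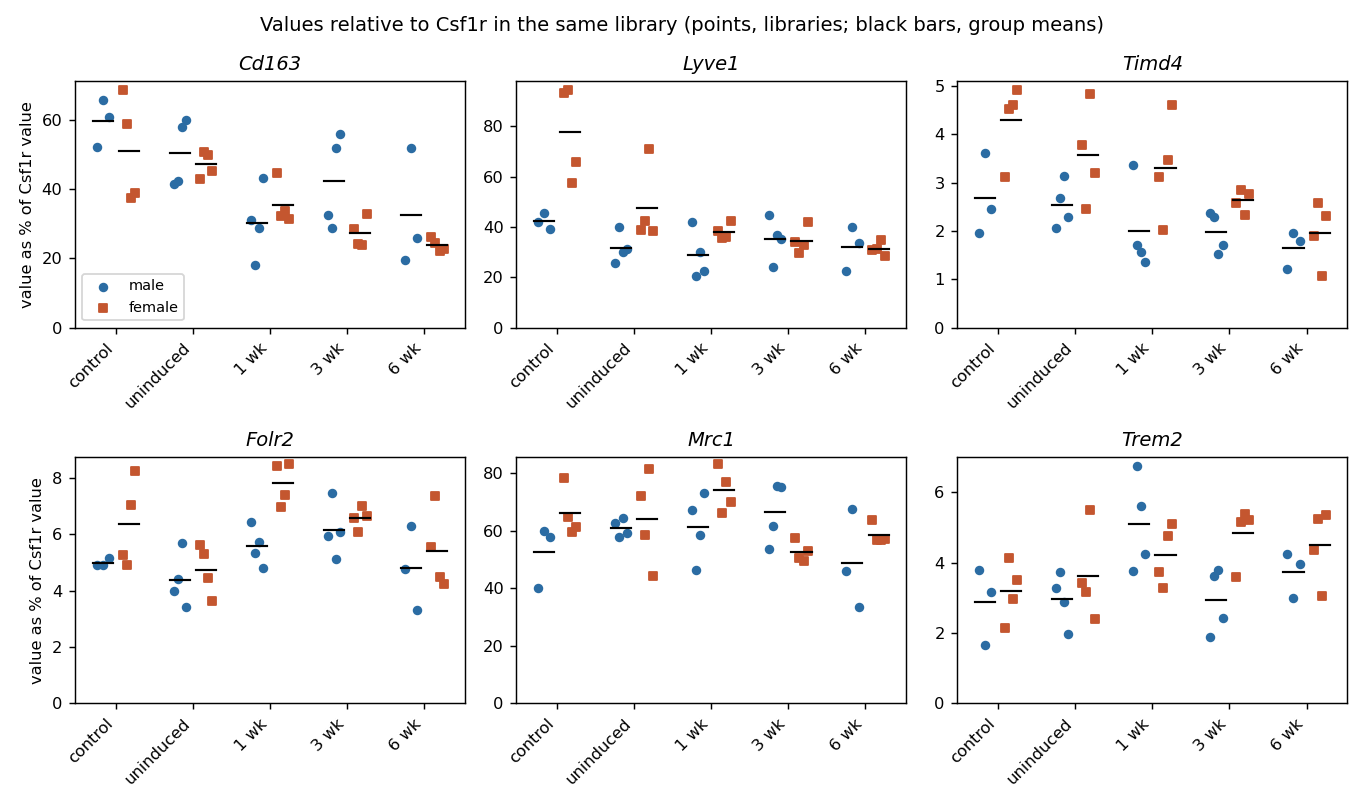
Values of 6 members as a percentage of *Csf1r* in the same library (vertical axes) across the 5 groups (horizontal axes), with males as blue circles, females as orange squares and means as black bars. In females *Lyve1*, *Cd163* and *Timd4* lie lower at 6 weeks than in controls, while *Folr2*, *Mrc1* and *Trem2* overlap.

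Lists of further marker genes were read beside the members at 6 weeks, and they were chosen with earlier results of these data known. Of all tested genes at that week, 16.2% rose and 10.9% fell in males. In females 21.7% rose and 21% fell. Of 16 further pan-macrophage genes, 15 rose and 0 fell at 6 weeks in either sex, and the median over the list was 2.06 in males and 2.28 in females on the log2 scale. The lysosomal protease gene *Ctss* rose by 2.29 in males and 3.30 in females, the calcium-binding protein gene *Aif1* by 2.49 and 2.80, and the complement gene *C1qa* by 2.20 and 2.50. Of 12 resident-type genes, 12 rose in either sex, with medians of 1.35 and 1.55, among them the fractalkine receptor gene *Cx3cr1* (1.84 and 3.14), the sialic acid receptor gene *Siglec1* (1.74 and 1.70) and the lectin gene *Cd209f* (1.54 and 2.33). The median of the resident-type list was lower than that of the pan-macrophage list in both sexes, and whether the lists differ was not tested.

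Of 10 monocyte genes 8 were tested in each sex, 5 rose and 0 fell, with medians of 1.05 in males and 1.38 in females. *Plac8*, expressed by classical monocytes, rose by 4.02 and 3.71, and the leukosialin gene *Spn* rose by 1.90 and 2.67. *Ly6c2*, which encodes the Ly6C antigen of inflammatory monocytes, rose by 0.71 in males (adjusted p = 0.0113 from limma) and had 0.10 in females (adjusted p = 0.678). Of 14 genes of lipid-associated macrophages, 8 of the 13 tested rose in males and 10 of 14 in females, with medians of 0.82 and 0.93. *Lgals3*, which encodes galectin 3, rose by 2.56 and 2.91, the integrin gene *Itgax* by 2.05 and 2.67, and the apolipoprotein gene *Apoe* by 1.77 and 2.29. Many of this list's genes are expressed widely in heart tissue.

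**Figure D4:**
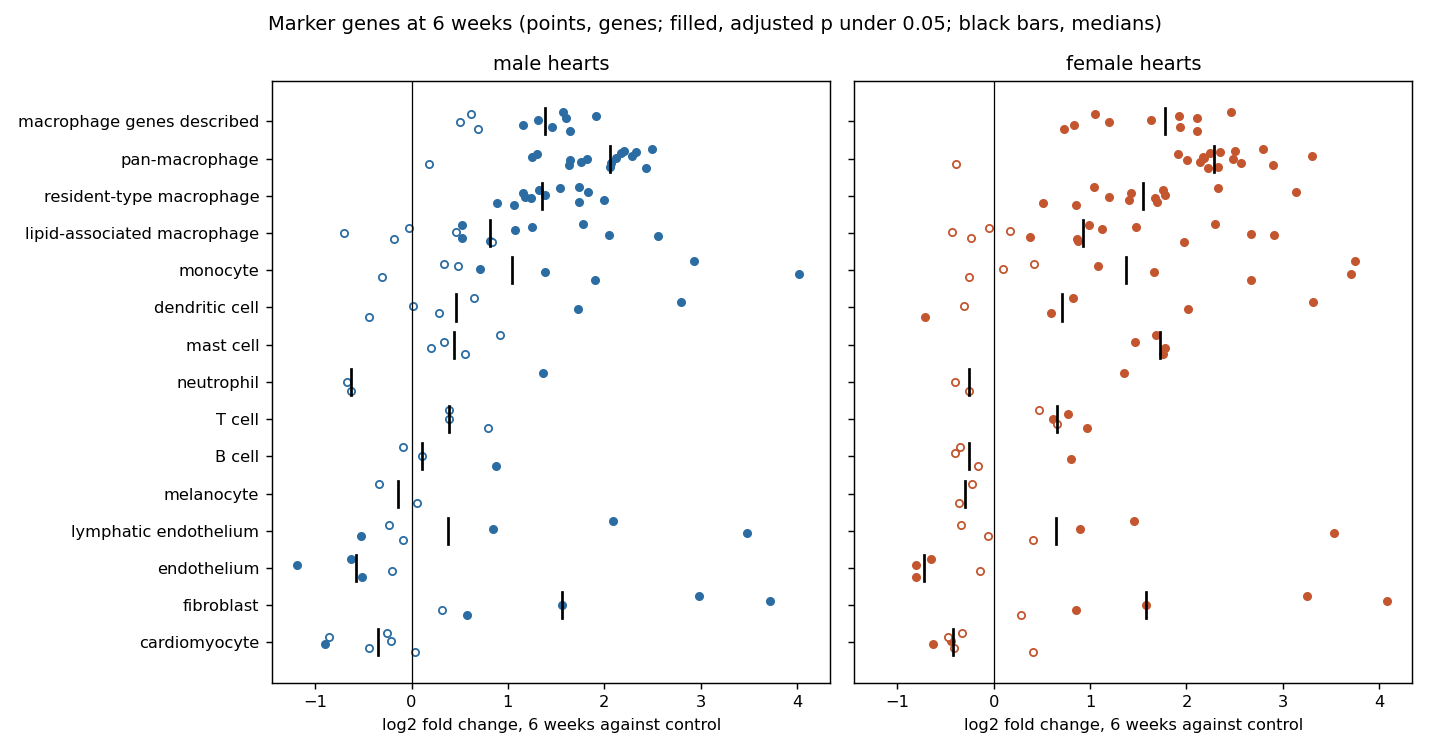
Log2 fold change at 6 weeks against control (horizontal axis) of the genes of each list (vertical axis) in males and females, with filled points past an adjusted p of 0.05, open points not, and black bars for the medians. Pan-macrophage and resident-type genes lie to the right of 0 apart from 1 pan-macrophage gene in females, while endothelial and cardiomyocyte medians lie to the left.

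On the ligand side, *Ccl12* and *Ccl7* rose in both sexes, *Csf1* rose in females at each week and in males at 3 weeks, and *Il34* did not rise. Of 7 genes of CSF1R ligands and monocyte chemokines 6 were tested, and 3 rose and 0 fell at 6 weeks in males and 5 rose and 1 fell in females, with medians of 0.97 and 1.42. *Csf1* was at 39.4 to 62.6 CPM in male controls and 57.8 to 96.6 at 6 weeks, and at 28.6 to 38.3 and 57.4 to 66.6 in females. It rose by 0.84 in females (adjusted p = 1.25e-06 from limma) and by 0.57 at 3 weeks in males (adjusted p = 0.0331), while the male value at 6 weeks was 0.43 (adjusted p = 0.115). *Il34*, the other CSF1R ligand, was at -0.18 in males (adjusted p = 0.591) and fell by 0.48 in females (adjusted p = 0.0181). The CCR2 ligand genes *Ccl12* and *Ccl7* rose by 2.63 and 2.69 in males and by 3.74 and 3.02 in females. *Ccl2*, the third of these ligands, rose by 1.69 in females and was at 0.74 in males (adjusted p = 0.101).

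Of 7 genes of TREM2 signalling and the MiT factors, 4 rose and 1 fell at 6 weeks in males and 5 rose and 0 fell in females, with medians of 0.83 and 0.96. *Tyrobp*, the adaptor that TREM2 signals through, rose by 2.43 in males (adjusted p = 3.26e-07 from limma) and 2.23 in females (adjusted p = 9.28e-11). The second adaptor gene *Hcst* rose by 1.03 and 1.03, and the MiT factor gene *Tfec* by 0.83 and 1.05, both from mean levels under 1 CPM. *Mitf*, the factor that acts on *Gpnmb* in melanocytes and osteoclasts, fell by 0.65 in males (adjusted p = 0.00177) and was at -0.43 in females (adjusted p = 0.0592).

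Of 6 dendritic cell genes 2 rose and 0 fell in males and 4 rose and 1 fell in females, led by *Cd209a* (2.80 and 3.31) and *Flt3* (1.73 and 2.01). Of the 3 neutrophil genes tested only *Csf3r*, which monocytes express too, rose (1.36 and 1.35), and *S100a8* was at -0.67 and -0.40, neither past the threshold. T cell genes counted 0 of 3 in males and 3 of 5 in females, B cell genes 1 of 3 and 1 of 4 and mast cell genes 0 of 4 and 4 of 4. Fibroblast genes rose in 4 of 5 cases in either sex, with medians of 1.57 and 1.59. Endothelial genes fell in 3 of 4 cases in either sex, and cardiomyocyte genes in 1 of 6 in males and 2 of 6 in females.

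For the 7 members that rose at 6 weeks in both sexes, which leaves out *Cd163*, *Timd4* and *Gpnmb*, the genes nearest in pattern were searched among 16614 genes tested in both sexes, by the root mean square difference over 8 log2 fold changes, namely the uninduced, 1-week, 3-week and 6-week groups against control in both sexes. Nearest to *Csf1r* was *Nckap1l*, which encodes the leukocyte subunit of the WAVE complex (0.0836 on the log2 scale), followed by *Lepr* (0.109) and *Cd300ld3* (0.119). *Adgre1* was nearest to *Pik3ap1* (0.131), *Epsti1* (0.179) and the Fc receptor gene *Fcgr1* (0.213), and *Cd68* to *Aoah* (0.140), *Unc93b1* (0.144) and *Cd300ld4* (0.146). For *Mrc1* the nearest were *Ifi204* (0.124), *Cd300ld4* (0.178) and *Fgf18* (0.185), and for *Folr2* they were *Ms4a6c* (0.137), *Cd84* (0.155) and *Chp2* (0.174). *Trem2* lay nearest to *Rac2*, the haematopoietic Rac GTPase (0.131), *Ptger4* (0.152) and *Clec4a2* (0.172). *Lyve1* had *Spns2* (0.124), *Entpd1* (0.129) and *Man2b2* (0.129) beside it. The 8 fold changes share the control libraries of each sex, so that these distances are a description of these libraries.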

How the data were processed

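PolyA RNA from left ventricular tissue of mouse hearts was sequenced from directional libraries, 1 per mouse. The authors aligned reads to GRCm39 with STAR, assigned them to genes with featureCounts and deposited the signal in CPM, 1 table per sex, from which genes with few reads were already absent. Once a factor per library is taken out, 100% of values come within 0.001 of whole reads. Replicates are separate mice, and their counts differed by more than sampling noise.

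Changes in log2(CPM + 0.5) were tested by limma 3.58.1 (R 4.3.3), allowing for a mean-variance trend and fitting each sex alone with its 5 groups together. A gene entered when 3 or more libraries reached 0.5, which left 16931 genes in males and 16956 in females, and Benjamini-Hochberg adjustment ran over these. A gene rose or fell where the adjusted p was under 0.05. Exact permutation tests, two-sided, were run on single members. The code was tested on simulated data. The members and the lists of marker genes (pan-macrophage, resident-type macrophage, monocyte, lipid-associated macrophage, CSF1R ligands and monocyte chemokines, TREM2 signalling and MiT factors, lymphatic endothelium, melanocyte, dendritic cell, neutrophil, T cell, B cell, mast cell, cardiomyocyte, fibroblast and endothelium) were chosen with earlier results of these data known. Named from each list are the 3 genes with the largest mean change at 6 weeks, plus *Csf1*, *Il34*, *Tyrobp*, *Ccr2*, *Ly6c2*, *Prox1* and *Mitf*, with some left out of the text for the lists of other cell types. *Il11* was named as the check of the labels, and *Hmgxb3* and *Gm10602* because their exons overlap members. Alternatives tried were no filter, pseudocounts of 0.1 and 2, a filter at 1 in 4 libraries, median-of-ratios scaling, 2 groups per fit, a replicate block, edgeR 4.0.16 and DESeq2 1.42.0 on recovered reads, a log2 fold change of at least 1, and leaving out each library. Positions are from the GENCODE annotation of GRCm39, and promoters from RefSeq (GRCm38.p6).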

Additional observations from a re-analysis of the deposited data

Results flagged for a closer look

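Of the 80 groups of 4 libraries that the members form, 6 held a library far from the other 3, where chance gives about 4 (1 in 20 groups). *Mrc1* stood at 43.7 CPM and *Trem2* at 2.95 CPM in the same uninduced female heart, replicate 3, each above the other 3 of its group. In females *Lyve1* was at 53.8 CPM in replicate 3 at 6 weeks, high in its group, *Folr2* at 6.00 CPM in replicate 2 at 3 weeks, low in its group, and *Trem2* at 0.56 CPM in control replicate 1, again low. In males *Folr2* was at 3.84 CPM in uninduced replicate 3, high in its group. No cause was tested.

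The male library that the title and tags name as a control, and the description as a heart at 6 weeks, entered no comparison. In it all 10 members lay above every male control, as did 36% of all tested genes: *Cd68* at 17.7 CPM, *Adgre1* at 32.3, *Csf1r* at 111, *Mrc1* at 74.3, *Cd163* at 44.6, *Lyve1* at 37.7, *Folr2* at 6.52, *Timd4* at 1.48, *Trem2* at 2.01 and *Gpnmb* at 1.76. *Timd4* was just above the highest control (1.401 CPM), and *Trem2* lay below the 6-week males (4.31 to 5.15 CPM). *Il11* was at 511 CPM in it.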

How the results depend on the processing

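Among the 80 log2 fold changes of members against control, 712 values under the other settings kept their direction and their side of the threshold, 6 lost the call and 2 gained it. With 1 library left out 567 kept both, 18 lost the call, 2 gained it and 3 reversed. The reversed ones were all in uninduced males, where none passed the threshold: with 1 library left out, *Cd163* ran from -0.041 (without male control replicate 1) to 0.49, *Lyve1* from -0.13 (without the same library) to 0.25 and *Gpnmb* from -0.11 (without male control replicate 3) to 0.28. Requiring also a log2 fold change of at least 1, which by construction calls fewer genes, lowered the number of members that rose to 4 (from 7) at 1 week against uninduced in males, to 1 (from 6) in uninduced against control females, to 6 (from 10) at 1 week against uninduced in females and to 4 (from 7) at 3 weeks against uninduced in females. The other 196 counts under other settings and all 152 with 1 library left out stayed within 1.5 times. *Lyve1* in males at 1 week missed the threshold with median-of-ratios scaling (adjusted p = 0.0503 from limma) and *Gpnmb* in females at 3 weeks at a pseudocount of 2 (0.0972).

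The libraries share only a replicate number: residuals of libraries with the same number correlated by 0.0132 on average in males (-0.134 to 0.256) and 0.0255 in females (-0.342 to 0.563), and 4 of 18 male and 6 of 20 female libraries correlated best with their own number. With a replicate block the counts at 6 weeks were 7 in males and 10 in females, and *Cd163* in males at 3 weeks passed (log2 fold change 1.16, adjusted p = 0.00512 from limma) while *Timd4* did not (0.83, adjusted p = 0.0522). Depth limits *Gpnmb*, *Timd4* and *Trem2* most, and 3 libraries in 2 male groups limit every male comparison with them.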

Other observations

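The male library with a 6-week title and a description as WT also entered no comparison. Its values were 4.50 CPM for *Cd68*, 6.85 for *Adgre1*, 41.7 for *Csf1r*, 20.6 for *Mrc1*, 29.4 for *Cd163*, 21.8 for *Lyve1*, 2.03 for *Folr2*, 1.23 for *Timd4*, 0.597 for *Trem2* and 1.15 for *Gpnmb*. *Il11* was at 0.597 CPM in it.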
